A study of Homo sapiens with 32 samples.

Results

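The genes described are those that code for the subunits of Mediator and Integrator, the large complexes that RNA polymerase II meets at the start of genes. Members were taken from the GENCODE 44 annotation as protein-coding genes whose symbol is MED or INTS followed by a digit, together with CDK8 and CCNC. The rule found 48 genes, 32 of Mediator and 16 of Integrator, among 19970 protein-coding genes on chromosomes 1 to 22 and X. At each gene the nearby binding sites of the transcription factors ZNF143, SP1, NRF1 and YY1 were read from chromatin immunoprecipitation followed by sequencing (ChIP-seq), which recovers and sequences the DNA that a protein was crosslinked to.

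The cells were HEK293T, an established human embryonic kidney line, in 1 clone (ZD29) whose ZNF143 protein carries a dTAG degron and an HA epitope. All 32 samples came from this clone, so the controls carry the degron too. Cells were left untreated or were treated for 30 minutes with 50 nM dTAGV-1, a molecule that sends the tagged protein to the proteasome, which made 2 groups for each antibody. A group had 4 samples for SP1, NRF1 (written Nrf1 in the labels) or YY1, and 2 samples for ZNF143, which was pulled down by its HA tag, or for the mock precipitation.

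Mediator carries signals from DNA-bound transcription factors to RNA polymerase II. Its head and middle modules contact the polymerase, MED14 is the scaffold that joins them to the tail, the tail meets activators, and a separable kinase module holds CDK8 and its cyclin. Integrator cuts nascent RNA, first described for small nuclear RNAs, with an RNA endonuclease, and it removes phosphates from paused polymerase with a bound protein phosphatase, which ends transcription early at many genes. ZNF143, SP1, NRF1 and YY1 are DNA-binding factors found at the promoters of many housekeeping genes.

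The data used were the authors' 4 lists of summits, 1 for each antibody, a summit being the point of strongest signal in a peak. On chromosomes 1 to 22 and X they held 16165 ZNF143, 126181 SP1, 39180 NRF1 and 106578 YY1 summits. Each summit has the authors' score, a −log10 p- or q-value whose lowest value was 2.00 in every list. Scores grow with depth, which the lists do not give, and were compared only within a list. The lists pool samples, so no value could be given per sample or treatment, and treated cells were not compared with untreated cells. For each gene the highest-scoring summit within 500 bp of the gene's annotated 5′ end was taken. Its offset is counted in the direction of the gene, with negative values upstream, and its rank is given as the top percent, the share of the list's summits that scored at least as high.

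ZNF143 was present, with a summit in the window of 500 bp on either side of the start, at 31 of the 48 genes (64.6%, Wilson 95% interval 50.4 to 76.6), where 31.7% of all protein-coding genes had one. SP1 was present at 45 (93.8%, 83.2 to 97.9, against 59.1% of all genes) and YY1 at 45 (against 57.8%). NRF1 was present at 40 (83.3%, 70.4 to 91.3, against 48.3%). Mediator and Integrator differed little in these counts. ZNF143 was present at 21 of 32 Mediator genes and 10 of 16 Integrator genes, SP1 and YY1 each at 30 of 32 and 15 of 16, and NRF1 at 26 of 32 and 14 of 16. All 4 lists had a summit at 30 of the 48 genes (62.5%), against 28.1% of all genes. The intervals cover counting error among genes, which are not replicates, and no difference from other genes was tested.

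The 5′ end chosen mattered for a few genes. The annotated 5′ end of a gene is that of its outermost transcript, and the Ensembl canonical transcript is the one Ensembl picks to stand for the gene. At 7 genes, INTS12, MED7, MED15, INTS8, MED24, INTS6 and MED26, the canonical 5′ end lay 858 to 187297 bp further into the gene, and at the others within 500 bp. Counted from canonical 5′ ends, ZNF143 was present at 35 genes (34.8% of all genes), SP1 at 48 (64.5%), NRF1 at 45 (52.8%) and YY1 at 48 (63.1%). Every member therefore had SP1 and YY1 summits at its canonical 5′ end, and 34 had all 4 factors (70.8%, against 31.6% of all genes).

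**Figure D1:**
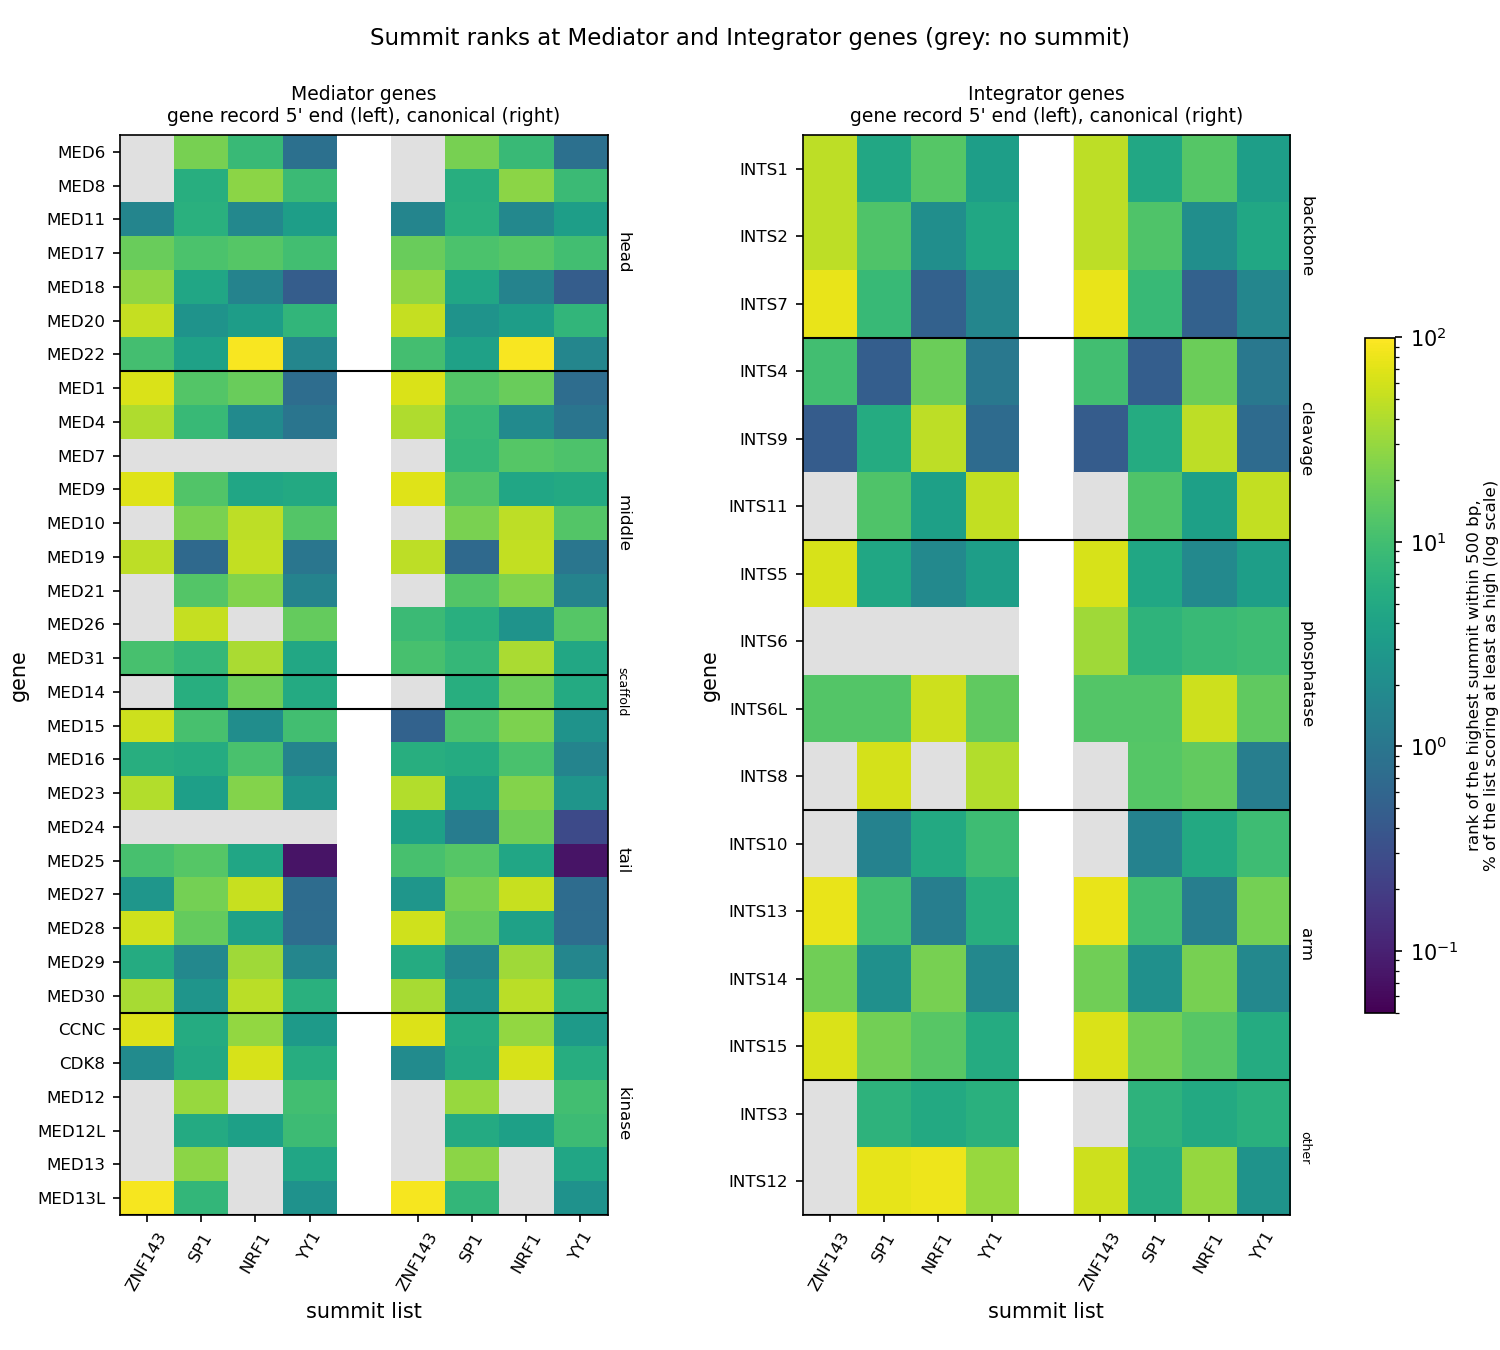
Rank of each gene's highest summit within 500 bp in the ZNF143, SP1, NRF1 and YY1 lists, as the top percent of the list on a logarithmic colour scale (dark is high), with Mediator genes on the left, Integrator genes on the right, and grey for no summit. In each panel the left columns use the gene record's 5′ end and the right columns the canonical transcript's, and the rows of grey at MED7, MED24 and INTS6 fill at the canonical end except for ZNF143 at MED7.

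The sequences under the strongest ZNF143 summits are shown because they carry different letters. Letters searched within 50 bp of a summit, on both strands, were TCCCANNAT, a core of the ZNF143 site, and ACTACANNT, the element that precedes it in many sites. After the sequences had been seen, ACTACA alone (the start of ACTACANNT) and CCCANNATG, which overlaps the core by 8 letters, were added. Each run is printed 5′ to 3′ from hg38 with the searched letters in capitals. MED11 (chr17:4731306-4731346, minus strand) and INTS4 (chr11:77995098-77995138, plus strand) followed the rule for printing. CDK8 (chr13:26253869-26253909, minus strand), MED15 (chr22:20507532-20507560, plus strand, at its canonical 5′ end) and MED27 (chr9:132079896-132079936, minus strand) were chosen after their values were seen.
MED11: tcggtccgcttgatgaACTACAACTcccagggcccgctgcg
CDK8: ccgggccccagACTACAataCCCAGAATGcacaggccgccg
INTS4: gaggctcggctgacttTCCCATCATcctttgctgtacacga
MED15: cgagactccatttcccacaagccctcctt
MED27: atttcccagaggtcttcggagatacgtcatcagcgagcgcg
CDK8 held the short element and the shifted core side by side, and MED11 the whole element next to its summit. No searched letters lay within 50 bp of the summits of MED15 and MED27, whose scores were also high. The windows of MED11, CDK8, INTS4 and MED27 lay outside annotated untranslated regions.

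Across members the searched ZNF143 letters were uncommon. TCCCANNAT lay within 50 bp of the highest ZNF143 summit at 3 of 31 genes (INTS4, MED11 and MED1) and ACTACANNT at 3 (MED11, INTS9 and MED22). The shares over all genes with a ZNF143 summit were 6.07% and 9.43%. ACTACA alone was found at 6 members (12.2% of all such genes), adding CDK8, MED19 and MED28, and CCCANNATG at 3 (5.39%), MED11, CDK8 and MED22. The 5 members with either of the first 2 forms had a median rank of top 9.94% and the 26 without of top 43.9%. For ACTACANNT alone the medians were top 1.60% at its 3 members and 43.9% at the others, against 4.29% and 42.9% over all genes. Exceptions ran both ways: MED1 held the core at a summit that scored 7.64 (top 66.0%), while MED27 and MED16 scored 9454 and 4636 with none of these letters.

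In the Mediator head, which binds the polymerase and the general factors, ZNF143 was present at 5 of 7 genes (71.4%, 35.9 to 91.8, against 31.7% of all genes). MED11 had the highest ZNF143 score of any Mediator gene at its annotated 5′ end, 13038 (top 1.60%) at −89 bp, with SP1 at 388 (−74 bp), NRF1 at 7987 (−12 bp) and YY1 at 426 (+68 bp). All 4 factors thus lay within 100 bp of the MED11 start on chromosome 17. MED22, whose start lies 87 bp from that of the ribosomal protein gene RPL7A on the other strand, scored 1566 (−89 bp) for ZNF143, 585 (−67 bp) for SP1 and 1058 (−164 bp) for YY1, but only 2.25 (−101 bp, top 93.0%) for NRF1. MED22's ZNF143 summit fell in an annotated untranslated region of RPL7A. MED17, the central head subunit, and its neighbour TAF1D start 164 bp apart, and the ZNF143 summit there scored 217 (+115 bp), with SP1 at 189 (−32 bp), NRF1 at 112 (+54 bp) and YY1 at 144 (+239 bp). MED18 and MED20, which form the mobile part of the head, had lower ZNF143 scores of 48.5 and 13.0. MED18 ranked high in the NRF1 list (8461, top 1.52%) and in the YY1 list (3314, top 0.464%). MED6 and MED8 had no ZNF143 summit but carried SP1, NRF1 and YY1, with a YY1 score of 2040 (top 0.835%) at MED6. The nearest ZNF143 summits lay 183587 bp from MED6 and 30602 bp from MED8.

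Of the 9 middle module genes, 5 had ZNF143 (55.6%, 26.7 to 81.1, against 31.7% of all genes). MED31, a small conserved subunit that starts 128 bp from C17orf100, scored 1290 (+18 bp, top 11.1%), with SP1 at 305 (−6 bp), NRF1 at 9.21 (−28 bp) and YY1 at 314 (+96 bp). The other 4 scored low in the ZNF143 list, from 6.95 at MED9 to 20.8 at MED4, with MED1, the subunit that binds nuclear receptors, at 7.64 and MED19 at 14.6. Each of these 4 genes ranked high in some other list. MED19 ranked in the top 0.671% of the SP1 list, MED1 and MED4 in the top 0.746% and 0.946% of the YY1 list, and MED4 and MED9 in the top 1.90% and 4.44% of the NRF1 list. Other ranks were lower, with MED19 at top 49.5% and MED1 at 17.6% for NRF1, and MED1 at 13.2% and MED9 at 12.6% for SP1. High YY1 ranks were common, with 39 of the 48 members in the top 10%. MED10 and MED21 had SP1, NRF1 and YY1 without ZNF143. MED26, which joins Mediator to elongation factors, had SP1 (13.1 at −244 bp) and YY1 (78.3 at +416 bp) at its annotated 5′ end and neither ZNF143 nor NRF1. At the canonical 5′ end of MED26, 858 bp away, all 4 lists had a summit, with ZNF143 at 2204 (−41 bp, top 9.02%), SP1 at 399.7 (−282 bp), NRF1 at 6455 (−151 bp, top 2.50%) and YY1 at 101 (+9 bp). MED7 had no summit of any list at its annotated end, and SP1 (305 at −90 bp), NRF1 (120 at −332 bp) and YY1 (116 at +116 bp) at the canonical end, 16154 bp away. ZNF143 was absent from both ends of MED7, with its nearest summit 572411 bp from the annotated one. MED14, the scaffold, had SP1 (405), NRF1 (42.7) and YY1 (283) without ZNF143.

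In the tail ZNF143 was present at 8 of 9 genes at the annotated end (88.9%, 56.5 to 98.0, against 31.7% of all genes). At the canonical end it was present at 9 of 9 (70.1 to 100, against 34.8% of all genes). The count rests on 9 genes, and no difference between modules was tested. MED27 had ZNF143 at 9454 (−49 bp, top 2.73%), SP1 at 80.3 (−34 bp), NRF1 at 5.86 (−341 bp) and YY1 at 2223 (+13 bp, top 0.733%). MED29 had ZNF143 at 5024 (−168 bp, top 5.41%), SP1 at 1093 (−91 bp, top 1.72%), NRF1 at 11.04 (−193 bp) and YY1 at 1055 (+160 bp, top 1.65%). MED16 had ZNF143 at 4636 (−129 bp, top 5.79%), SP1 at 439 (−142 bp), NRF1 at 220 (−311 bp) and YY1 at 1146 (+110 bp, top 1.54%). All 3 genes were thus in the top 10% of both the ZNF143 and the YY1 list, and none was in the top 10% of the NRF1 list. This does not set the tail apart, because 39 of the 48 members were in the top 10% for YY1 and only 17 for NRF1. Outside the tail INTS9, INTS4 and CDK8 had the same pattern, while MED11 was in the top 10% of all 3 lists. MED25 scored 1370 for ZNF143 (−88 bp, top 10.8%). MED30, MED23, MED15 and MED28 scored between 9.85 and 24.5 at their annotated ends. MED29 and PAF1, which codes for a subunit of an elongation complex, start 149 bp apart on opposite strands, and the summit fell in an untranslated region of PAF1. MED25, a target of viral and cellular activators, had the highest YY1 score of any member, 10401 (−138 bp, top 0.0741%).

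MED15 and MED24 changed most with the 5′ end. At its annotated end MED15, the subunit bound by sterol-responsive and other activators, had a weak ZNF143 summit of 10.6 at +380 bp and a strong NRF1 summit of 7165 (−13 bp, top 2.08%). At the canonical end, 11697 bp into the gene, ZNF143 scored 21362 (−64 bp, top 0.538%), second among the members only to INTS9, and NRF1 scored 28.1. The strong ZNF143 and the strong NRF1 summits of MED15 thus stood at different starts of the gene. MED24 had no summit of any list at its annotated end. At the canonical end, 6807 bp away, ZNF143 scored 7204 (−47 bp, top 3.76%), SP1 1396 (−18 bp, top 1.21%), NRF1 40.0 (−69 bp) and YY1 4886 (+7 bp, top 0.272%).

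In the kinase module ZNF143 and NRF1 were each present at 3 of 6 genes (50%, 18.8 to 81.2), against 31.7% and 48.3% of all genes. CDK8, the kinase itself, scored 11864 in the ZNF143 list (−227 bp, top 1.98%), with SP1 at 473 (−215 bp), YY1 at 260 (−199 bp) and NRF1 at 4.44 (−260 bp). These 4 summits lay together upstream of the CDK8 start on chromosome 13. CCNC, its cyclin, had a ZNF143 score of 7.40 (+228 bp). The remaining genes form paralogous pairs. MED12, which activates the kinase, had SP1 (37.9 at −74 bp) and YY1 (144 at +221 bp), and its paralogue MED12L had SP1 (455 at +287 bp), NRF1 (4379 at +379 bp, top 3.81%) and YY1 (155 at +248 bp). Neither had ZNF143. MED13, which tethers the module to the core, had SP1 (50.3 at +191 bp) and YY1 (329 at +106 bp). MED13L had SP1 (315 at −53 bp), YY1 (680 at −13 bp) and a ZNF143 summit near the floor of the list (3.39 at −95 bp, top 90.0%). The nearest NRF1 summit lay 640 bp from MED13L, just outside the window. At canonical 5′ ends the 3 members without NRF1 were MED12, MED13 and MED13L.

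Integrator's backbone genes INTS1, INTS2 and INTS7 all had the 4 factors, as did 28.1% of all genes. Their ZNF143 scores were low, at 15.5, 14.6 and 5.02. INTS1 had its ZNF143 summit at −36 bp (top 46.3%), with SP1 at 486 (−55 bp), NRF1 at 117 (−153 bp) and YY1 at 421 (−48 bp). NRF1 was strong at INTS7, with 12623 (−10 bp, top 0.528%), the highest NRF1 score of any member, and at INTS2, with 7092 (top 2.13%). In the cleavage module INTS9 and INTS11 form the endonuclease pair, in which INTS11 is the active nuclease, and INTS4 holds them together. INTS9, on chromosome 8, had the highest ZNF143 score of all members at annotated ends, 22572.5 (−46 bp, top 0.452%), with SP1 at 436 (−33 bp), YY1 at 2279 (−90 bp, top 0.719%) and NRF1 at 6.68 (−21 bp). The INTS9 summit lay between its start and that of HMBOX1, 153 bp away on the other strand. INTS4 had ZNF143 at 1714 (−376 bp, top 9.94%) and the highest SP1 score of any member, 2330 (−289 bp, top 0.479%), with NRF1 at 46.5 (−25 bp) and YY1 at 1693 (+68 bp). INTS11 had its nearest ZNF143 summit 16555 bp away, and its NRF1 summit scored 4503 (+24 bp, top 3.71%). The endonuclease partners therefore stood at opposite ends, with INTS9 high for ZNF143 and low for NRF1, and INTS11 the reverse.

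In the phosphatase module INTS6, which recruits the phosphatase, had no summit of any list at its annotated 5′ end, the nearest being SP1 at 691 bp. At the canonical end, 1228 bp away, ZNF143 scored 30.4 (+95 bp), SP1 347 (−32 bp), NRF1 640 (−226 bp) and YY1 151 (+143 bp). Its paralogue INTS6L had a higher ZNF143 score of 703 (−140 bp, top 13.0%), with SP1 at 160 (−34 bp), YY1 at 86.4 (+44 bp) and NRF1 at 5.15 (−457 bp, near the edge of the window). INTS5 had ZNF143 at 8.36 and NRF1 at 7785 (−4 bp, top 1.81%). INTS8 had SP1 (9.51 at +361 bp) and YY1 (20.2 at +358 bp) at its annotated end. The canonical end of INTS8, 9976 bp away, had SP1 (157 at 0 bp), NRF1 (67.9 at +251 bp) and YY1 (1372 at +52 bp, top 1.30%), and neither end had ZNF143.

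Among the genes of the arm that holds INTS10, INTS13, INTS14 and INTS15, ZNF143 was present at 3 of 4 (75%, 30.1 to 95.4, against 31.7%). INTS14, whose start lies 77 bp from that of SLC24A1, had ZNF143 at 151 (+142 bp, top 19.5%), SP1 at 905 (+108 bp, top 2.24%), NRF1 at 31.5 (+100 bp) and YY1 at 1012 (+126 bp, top 1.72%). All 4 summits of INTS14 lay within 50 bp of each other. INTS15 and INTS13 scored 7.64 and 5.39 for ZNF143. INTS10 had its nearest ZNF143 summit 380056 bp away, though its SP1 (1240, top 1.45%) and NRF1 (2995, top 4.99%) summits ranked high. INTS13 had its NRF1 summit, 9164 (top 1.29%), at +299 bp, which is −46 bp from the canonical 5′ end. INTS3, which also binds single-stranded DNA-binding proteins, had SP1 (354), NRF1 (2981) and YY1 (232) without ZNF143. INTS12 had weak SP1 (5.37 at −182 bp), NRF1 (2.88 at −299 bp) and YY1 (33.2 at +368 bp) summits at its annotated end. At the canonical end of INTS12, 187297 bp away, SP1 scored 425 (−24 bp), NRF1 14.3 (−212 bp), YY1 649 (−42 bp, top 2.49%) and ZNF143 10.4 (−48 bp). Of the 48 genes, 13 had ZNF143 at neither end: MED6, MED7, MED8, MED10, MED12, MED12L, MED13, MED14, MED21, INTS3, INTS8, INTS10 and INTS11.

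ZNF143 and SP1 summits tended to lie upstream of the start and YY1 summits downstream, as over all genes. The median offset over members was −49 bp for ZNF143 (−19 bp over all genes), −49 bp for SP1 (−38 bp) and −29.5 bp for NRF1 (−29 bp). For YY1 it was +68 bp (+60 bp). ZNF143 lay upstream at 21 of 31 members (67.7%, against 55.8% of all genes) and YY1 at 15 of 45 (33.3%, against 38.2%). From canonical 5′ ends the medians were −50 bp for ZNF143 (−59 bp over all genes), −64.5 bp for SP1 (−73 bp), −79 bp for NRF1 (−66 bp) and +20 bp for YY1 (+30 bp). The gap between members and all genes therefore turned for ZNF143, SP1 and YY1 with the choice of 5′ end, and the NRF1 and YY1 medians moved by more than 1.5 times. By complex the medians from annotated 5′ ends were −50 bp at Mediator and −41 bp at Integrator genes for ZNF143, −41.5 and −55 bp for SP1, −49.5 and −23 bp for NRF1, and +60 and +68 bp for YY1. The spread between genes was far wider than these gaps, from −376 bp at INTS4 to +380 bp at MED15 for ZNF143. In the annotation, 18 of the 31 ZNF143 summits were outside protein-coding genes, 8 in untranslated regions, 3 in introns, 1 in coding sequence and 1 in another exon. YY1 summits lay in untranslated regions at 17 and in coding sequence at 12 of 45 members. The shares of all genes in these classes are not given, so the counts describe the members and no trait particular to them.

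**Figure D2:**
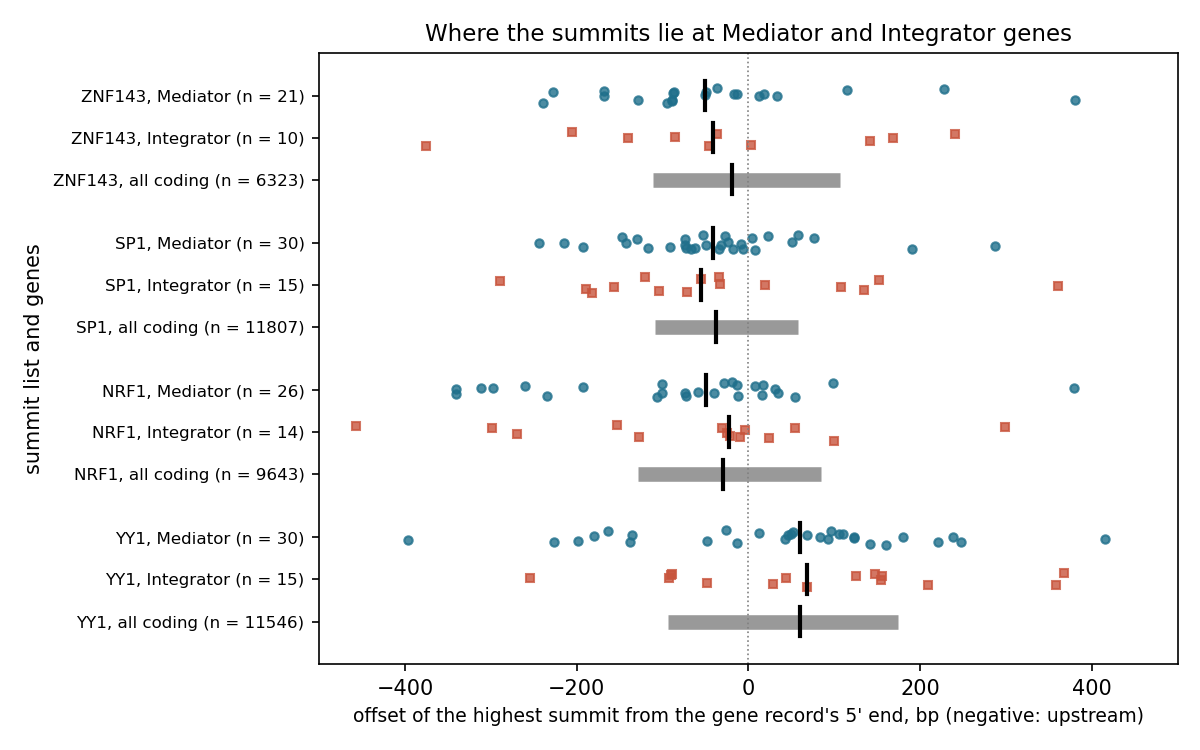
Offset in bp of the highest summit from the gene record's 5′ end, for each list, with 1 point per Mediator gene (circles) or Integrator gene (squares), black bars for medians and grey bars for the middle 50% over all protein-coding genes with a summit. The YY1 medians lie at +60 bp or above and the ZNF143, SP1 and NRF1 medians below 0.

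Ranks were read within each list. Among members with a summit, the median ZNF143 rank was top 40.4%, that of SP1 7.82%, that of NRF1 13.8% and that of YY1 4.53%. Over all genes with a summit these medians were 38.0%, 11.3%, 18.1% and 10.2%. The summit was in the top 10% of its list at 39 of the 48 genes for YY1 (28.5% of all genes), 26 for SP1 (26.7%), 17 for NRF1 (15.1%) and 7 for ZNF143 (6.47%). The 7 for ZNF143, at annotated 5′ ends, were INTS9, MED11, CDK8, MED27, MED29, MED16 and INTS4. From canonical 5′ ends the median ZNF143 rank was top 33.9% at members and 38.1% over all genes. By complex it was 17.7% at Mediator and 46.9% at Integrator genes. The ZNF143 summit was then in the top 10% at 10 of the 48 genes (7.02% of all genes). A top share holds more summits in a longer list, so ranks in different lists cannot be set against each other, and each count is read against the share of all genes for the same list. For YY1 the median rank was top 3.36% at Mediator and 5.40% at Integrator genes, and for NRF1 18.2% and 9.22%, with middle ranges that overlapped in both.

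**Figure D3:**
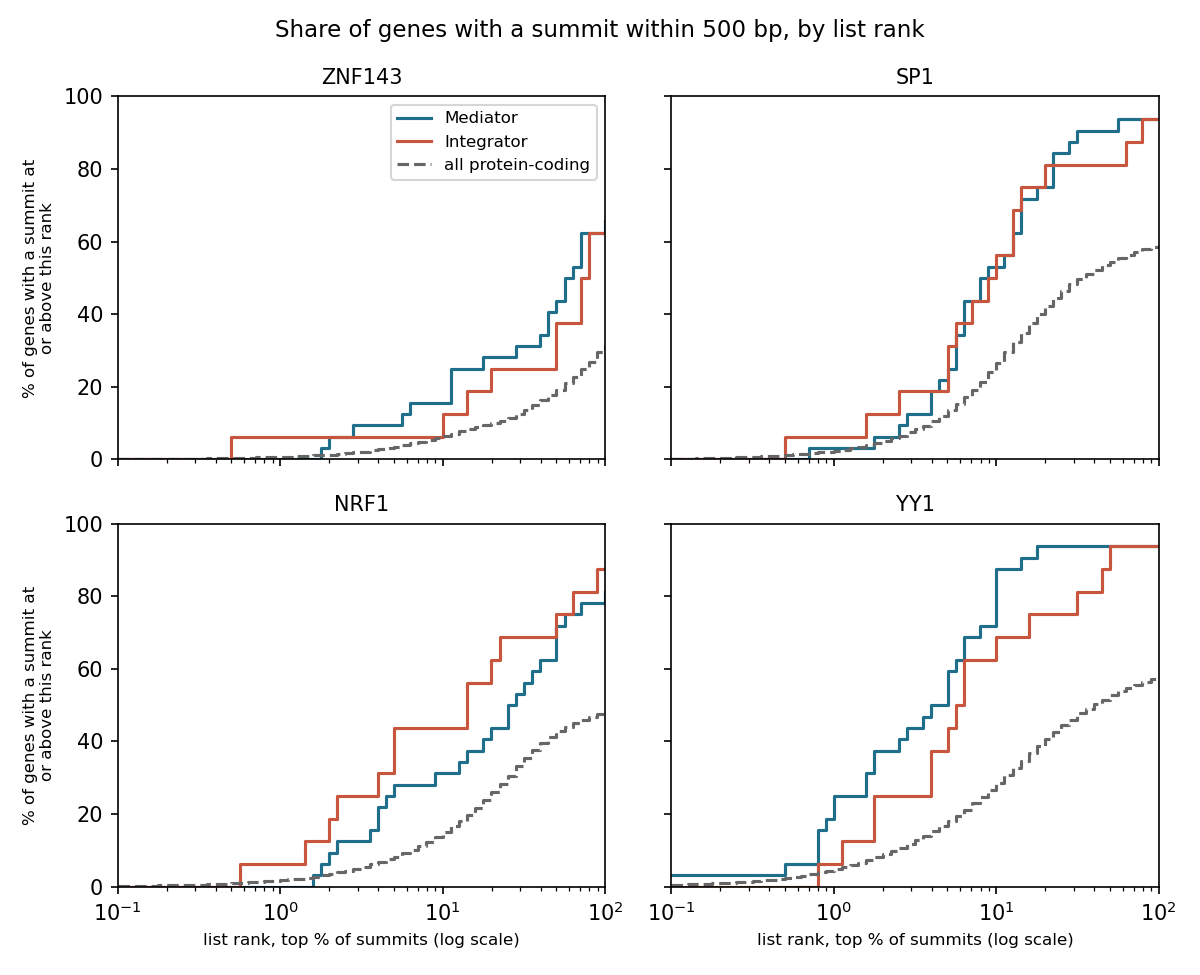
Share of genes (%) with a summit within 500 bp that ranks at or above a given top percent of its list (logarithmic axis), for Mediator genes, Integrator genes and all protein-coding genes (dashed). For SP1 and YY1 the curves of both complexes rise to 93.8% and that of all genes to 59.1% and 57.8%.

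Members with ZNF143 also had stronger SP1 and YY1 summits than members without, as all genes did. The median SP1 rank was top 6.18% at members with ZNF143 and 17.0% at those without, and the YY1 medians were 2.60% and 9.38%. Over all genes the corresponding medians were 7.54% and 19.6% for SP1, and 5.32% and 21.5% for YY1. All were read at annotated 5′ ends. The canonical 5′ end lay over 500 bp away at 6 of the 17 members without ZNF143 and at 1 of the 31 with it. Of the 6, INTS12, INTS8 and MED26 had SP1 summits at the annotated end, ranked top 76.3%, 60.4% and 51.7%. At their canonical ends SP1 ranked top 5.57%, 13.3% and 5.99%. The NRF1 medians at members were 13.8% and 13.7%. They were 15.6% and 21.2% at Mediator genes (20 and 6 with NRF1) and 13.7% and 4.99% at Integrator genes (10 and 4). The last median rested on only 4 genes, ranked from top 3.71% at INTS11 to top 82.1% at INTS12. No contrast between the complexes can be read from so few genes. Over all genes the NRF1 medians were 16.4% and 21.4%. Among the 40 members that had SP1, NRF1 and YY1 together, 30 had ZNF143 (75%, 59.8 to 85.8), against 61.8% of all genes with those 3 factors. The gap between members and all genes was thus narrower in this subset than over all 48, and it was not tested.

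Over both complexes SP1 summits lay closest to those of ZNF143, but at Integrator genes SP1 and YY1 had equal counts, each within 25 bp at 3 of 10 and within 100 bp at 7 of 10. The SP1 list is also the longest, and a longer list gives shorter nearest distances. An SP1 summit lay within 25 bp of the highest ZNF143 summit at 14 of 31 members (45.2%, against 28.0% of all genes with ZNF143) and within 100 bp at 24 (77.4%, against 67.5%). At the 7 members in the top 10% of the ZNF143 list the gap from ZNF143 to SP1, in the direction of the gene, was +13 bp at INTS9, +15 bp at MED11, +12 bp at CDK8, +15 bp at MED27, +77 bp at MED29, −13 bp at MED16 and +87 bp at INTS4. It was thus under 25 bp at 5 of the 7. NRF1 lay within 100 bp at 17 (54.8%, against 46.8%) and YY1 at 18 (58.1%, against 66.0%). Summits of different antibodies a few bp apart can come from the same sheared fragments, so these distances do not show separate sites.

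The NRF1 sequences are shown because the letters of its site went with rank. The letters searched, on both strands, were GCGCANGCG, and copies on opposite strands can overlap. They lay within 50 bp of the highest NRF1 summit at 13 of 40 members (32.5%), against 21.8% of all genes with an NRF1 summit, and 13 of the 48 windows of 1001 bp around the 5′ end held them (27.1%, against 14.6% of all genes). The 4 strongest members, INTS7, INTS13, MED18 and MED11, are printed with INTS2 and with MED26 at its canonical 5′ end, whose printed run held 2 separate copies. These were chosen after the values were seen. The windows were INTS7 (chr1:212035547-212035575, minus strand), INTS13 (chr12:26938008-26938048, minus strand), MED18 (chr1:28328898-28328938, minus strand), MED11 (chr17:4731396-4731424, plus strand), INTS2 (chr17:61928024-61928064, minus strand) and MED26 (chr19:16628332-16628372, plus strand), all in hg38.
INTS7: ggtgaccaggGCGCATGCGtaacagggct
INTS13: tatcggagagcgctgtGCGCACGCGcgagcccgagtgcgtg
MED18: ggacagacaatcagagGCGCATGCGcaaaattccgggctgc
MED11: ggtgccctctGCGCAGGCGcacaccgaga
INTS2: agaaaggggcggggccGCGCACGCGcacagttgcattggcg
MED26: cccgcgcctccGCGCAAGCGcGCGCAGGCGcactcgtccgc
In each run the capitals mark the searched letters on the printed strand. A copy on the other strand overlapped them at MED18 and is not marked. INTS7 and INTS13 had a further copy within 50 bp of the summit but outside the printed run. The middle of the capitals lay 1 to 10 bp from the summit at INTS13, INTS2, INTS7, MED11 and MED18.

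All 13 members with the NRF1 letters were in the top 10% of the NRF1 list (88.5% of all genes with the letters were), with a median rank of top 2.08% and a lowest score of 2981 at INTS3. They were INTS2, INTS3, INTS5, INTS7, INTS11, INTS13, MED4, MED11, MED15, MED18, MED20, MED25 and MED28. Of the 27 members without the letters, 4 were in the top 10% (MED12L, MED9, INTS10 and MED6), 14.8% against 15.3% of all genes without them, and their median rank was top 24.8%. Over all genes the medians were top 3.90% with and 23.4% without the letters.

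YY1 letters were searched as AANATGGCG on both strands and lay within 50 bp of the highest YY1 summit at 6 of 45 members (13.3%), against 6.56% of all genes with a YY1 summit. The 6 were MED1, MED12, MED18, MED19, MED27 and MED28, all of Mediator, and all were in the top 10% of the YY1 list, as were 33 of the 39 members without the letters (84.6%). Over all genes the shares were 95.6% with and 46.1% without the letters. Windows of 1001 bp held the letters at 12 of 48 members (25%, against 7.54% of all genes). The strongest are printed with MED24 at its canonical 5′ end, chosen after the values were seen. They were MED24 (chr17:40054380-40054408, minus strand), MED18 (chr1:28328866-28328906, minus strand), MED27 (chr9:132079829-132079857, minus strand), MED28 (chr4:17614642-17614670, plus strand) and MED1 (chr17:39451230-39451258, minus strand), in hg38 with the searched letters in capitals.
MED24: gacaagtgccAAAATGGCGatgcctacca
MED18: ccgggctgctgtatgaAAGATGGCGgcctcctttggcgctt
MED27: tggcggcggcAACATGGCGgacgtgataa
MED28: cgccattccaAACATGGCGgctccactag
MED1: tccgttggggAAGATGGCGgcggcctcga
At MED1, MED27, MED28 and MED12 the letters ran in the direction of the gene and lay 28, 24, 15 and 213 bp downstream of the 5′ end. At MED18 and MED19 they ran against it and lay upstream, at −116 and −399 bp. The NRF1 letters of MED18 lay close by, at −84 bp. A protein-coding gene on the other strand starts at −361 bp from MED19. The YY1 letters of MED19 thus ran in that neighbour's direction and lay downstream of its start.

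**Figure D4:**
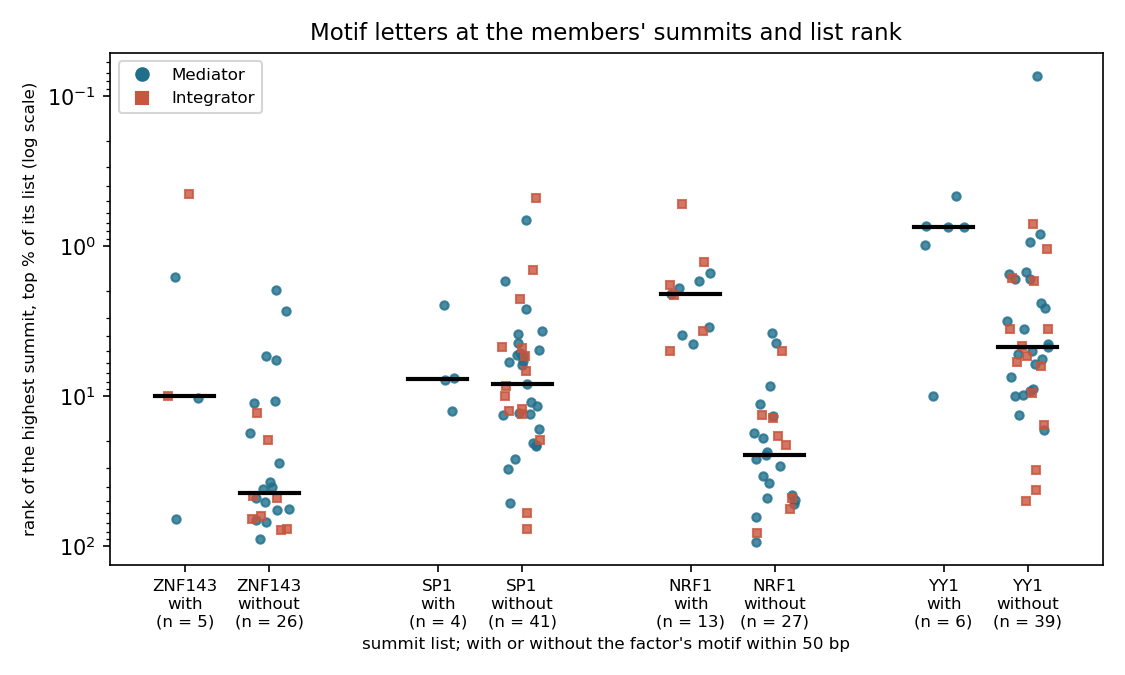
Rank of each member's highest summit (top percent of its list, logarithmic axis, highest at the top) with or without the factor's own searched letters within 50 bp, with circles for Mediator genes, squares for Integrator genes and bars for medians. For NRF1 the genes with the letters have a median of top 2.08% and those without of top 24.8%, while for SP1 the medians are 7.70% and 8.27%.

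SP1 letters, GGGGCGGG on either strand, lay within 50 bp of the highest SP1 summit at 4 of 45 members (MED9, MED13L, MED20 and MED31), 8.89% against 18.65% of all genes with an SP1 summit. The 1001 bp windows held them at 20 of 48 members (41.7%), close to the 42.6% of all genes. At the members the SP1 summits therefore stood mostly away from this form of the GC box. The median SP1 rank was top 7.70% with it and 8.27% without. The top 10% of the list held 3 of the 4 with it (75%) and 23 of the 41 without (56.1%), against 51.8% and 43.6% over all genes. With it at only 4 genes, no difference can be read. A match or its absence describes only these letters in these windows.

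Shared promoters were common among the members. A protein-coding gene on the other strand started within 1000 bp at 15 of the 48 (31.3%), against 13.4% of all genes. ZNF143 was present at 13 of these 15 (86.7%, 62.1 to 96.3) and at 18 of the other 33 (54.5%, 38.0 to 70.2), and over all genes at 65.0% and 26.5%. The share at members was above that of all genes in both subsets. The gaps were not tested, and the genes are not replicates. SP1, NRF1 and YY1 were present at all 15, where 88.0%, 79.8% and 87.1% of all genes with such a neighbour had them. At such pairs a summit cannot be given to 1 of the genes.

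Genes of proteins that work with the complexes were read from lists drawn up with the members. Of 8 partners, ZNF143 was present at 4 at the annotated 5′ end (50%, 21.5 to 78.5, against 31.7% of all genes). At the canonical end it was present at 6 (against 34.8%). CDK19, the paralogue of CDK8, scored 10150 (+429 bp, top 2.50%). The 4 without ZNF143 at the annotated end were NABP1 and NABP2, which bind single-stranded DNA with INTS3, and PPP2CA and PPP2R1A, the phosphatase subunits. CDK8 and CDK19 were thus both in the top 2.50% of the ZNF143 list. Of 10 genes for the factors that hold or release paused polymerase, ZNF143 was present at 6 (60%, 31.3 to 83.2, against 31.7%). At the canonical end it was present at 8 (against 34.8%). At annotated ends both intervals took in the share of all genes, so these short lists cannot be told from it. Scores at the 6 ran from 15.5 at SUPT5H to 4818 at CDK9, the kinase that releases the pause. HEXIM1, an inhibitor of that kinase, had ZNF143 at 3810 (−88 bp) and NRF1 at 14649 (top 0.299%) and no SP1 summit. The 4 without ZNF143 at the annotated end were SUPT4H1, NELFA, NELFCD and NELFE.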

How the data were processed

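ChIP-seq was done on 1 HEK293T clone, and samples were grouped by antibody and treatment from the sample titles. The deposited lists give, in column 5, a −log10 p-value or q-value for each summit, read as such from the values and layout. Which of the 2 it is was not given in the sources used here. The authors used cutadapt, Bowtie2, SAMtools 1.16.1, MACS3, bedtools and the hg38 build, per the submitters' processing notes, which state no parameters. Per the labels, the ZNF143 and SP1 lists stand for untreated and treated samples alike, and the NRF1 and YY1 lists were matched by the antibody in their names. Signal tracks and the mock samples were not analysed here, and read depth is unknown.

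Positions were compared with hg38 and GENCODE 44 in Python 3.11.15 with pandas 2.3.3, numpy 2.4.6 and pysam 0.24.0. All list positions lay within the hg38 chromosomes. The gene record's 5′ end was the main one, and the highest-scoring summit within 500 bp was used. In the SP1, NRF1 and YY1 lists no peak numbers were skipped around the members without a summit, which gives no sign of a peak filtered out there. A list numbered after filtering would show no gaps either, so this cannot settle it. No such reading is given for the ZNF143 list. Letters were searched in hg38 with no mismatch, wholly within 50 bp of the summit. RefSeq promoter sequences were given for 36 members and all 39 entries equalled hg38. Shares carry Wilson 95% intervals. The counting was tested on simulated summits. No significance test was made, because the lists pool samples.

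The members and gene lists were chosen with earlier results of these data known. All members were named. Values in full were given for the 5 highest ZNF143 scores in each complex, members lacking another factor, members sharing a promoter (up to 6), members whose canonical 5′ end changed ZNF143, and paralogous pairs. Sequences were for the highest ZNF143 scores with the searched letters outside untranslated regions and chromosome 8, which left out INTS9, MED22 and MED1. Others were chosen after their values were seen. Alternatives were windows of 250 and 1000 bp, the top 50% of each list, equal list lengths and other 5′ ends.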

Additional observations from a re-analysis of the deposited data

How the results depend on the processing

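The counts of genes with a summit, by complex and factor, were recomputed under 6 alternatives. The median offsets were recomputed under all of these except any 5′ end of a protein-coding transcript. The median ranks were recomputed only for canonical 5′ ends and for windows of 250 and 1000 bp. Of these 24 results, 1 moved: keeping the top 50% of each list by score left 6 Integrator genes with ZNF143 in place of 10, because lower-scoring summits were removed. The same alternative left 14 Mediator genes with ZNF143 in place of 21. All other counts stayed within 1.5 times the value given, and all recomputed medians moved by less than 1 SD between genes. That SD was wide. The median ZNF143 rank at Mediator genes went from top 37.3% to top 17.7% at canonical 5′ ends, where the SD was 27.1. Canonical 5′ ends raised all 8 counts. Keeping 16165 summits in each list left SP1 at 20 Mediator and 11 Integrator genes, NRF1 at 20 and 11, and YY1 at 29 and 11. For YY1 the complexes thus stood further apart than with the full lists, which was not tested. The shares over all genes are not given for this setting or for the top 50%. These counts therefore cannot be read against other genes. No paired analysis was possible because the lists pool samples, and no replicate could be left out for the same reason. Every list stopped at a score of 2.00, and the length of a list can depend on read depth, which is unknown here. A missing summit therefore says only that none was called.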

Other observations

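The base composition around the starts of the Mediator and Integrator genes was close to that of other genes in GC content and somewhat higher in CpG. In windows of 1001 bp the median GC content was 58.6% at members and 59.2% over all protein-coding genes, and the median ratio of observed to expected CpG was 0.762 and 0.688. Members with ZNF143 had a median ratio of 0.776 and those without 0.725, against 0.793 and 0.532 over all genes. The lowest ratios were at the annotated starts of MED24 (0.218), INTS8 (0.226) and MED7 (0.243), 3 of the genes whose canonical 5′ end lay elsewhere. MED13L had the highest GC content of the members, 81.7%.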
